A study of Drosophila melanogaster with 2 samples.

Results

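Distal intergenic summits are the peak summits of Ets96B-eGFP that lie outside annotated transcripts and far from the promoters of protein-coding genes. They were chosen from the reproducible peak list by position alone: the summit lay in no annotated transcript, transposable elements excepted, and more than 5000 bp from the nearest transcription start site (TSS) of a protein-coding gene. The rule took 893 of all reproducible summits, or 11.1% (95% interval 10.5 to 11.9), and left 7122. The sets used beside them were the 791 intergenic summits that lay more than 500 and at most 5000 bp from a TSS and the 1554 summits inside protein-coding transcripts but more than 5000 bp from a TSS. The assay was chromatin immunoprecipitation and sequencing (ChIP-seq) on Drosophila melanogaster. The animals came from a transgenic line that stably expresses Ets96B fused at its C terminus to GFP, and the tagged protein was recovered with an antibody to GFP, although another label field names the antibody by Ets96B. The single group was whole prepupae, 24 hour of age by the labels, of both sexes pooled, with 2 biological replicates numbered 2 and 3. A control alignment entered the peak calls. The labels do not state which promoter drives the fusion or whether the untagged gene remains. There was no untagged, mutant or other-stage group, and no other condition to compare with. Each library mixes all tissues of the animal, so strong binding in few cells and weaker binding in many cannot be told apart.

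In the fly genome, intergenic sequence far from promoters is where many developmental enhancers lie, and these often act on a gene over long distances and sometimes past a nearer one. Ets96B belongs to the PEA3 subfamily of ETS transcription factors, which bind DNA at a GGAA core through the ETS domain and in animals commonly act downstream of receptor tyrosine kinase signalling. The nearest TSS is used below as an address and not as the target of a summit.

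The sequences under some of the strongest distal summits are given as examples. The strongest of all, near CG13323 with 41.6% G+C within 50 bp, and the one near pxb, with 34.7%, are not printed. Those printed are named by the gene with the nearest TSS. Each is given as 151 bases of the forward strand, 5′ to 3′, centred on the summit. Sequence is from the RefSeq copy of dm6 with 1-based coordinates. None of the printed sequences holds the homeodomain core TAATTA or an ETS word as spelled out in the next paragraph, so all are in lower case. The ETS words cover only part of the sequences with a GGAA core. That core does occur in the sequences near heca, CG18404, CG43245 and Eip93F, and on neither strand in the one near eEF1gamma. How often it occurs in other sequence was not counted, so these occurrences have no background to be read against. A and T make up most of the bases at the centres of these sequences.
eEF1gamma, chr3R:29214358-29214508: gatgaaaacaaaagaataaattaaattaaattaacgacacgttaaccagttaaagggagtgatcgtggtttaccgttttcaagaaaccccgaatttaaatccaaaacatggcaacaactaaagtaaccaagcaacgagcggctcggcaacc
heca, chr3R:30272637-30272787: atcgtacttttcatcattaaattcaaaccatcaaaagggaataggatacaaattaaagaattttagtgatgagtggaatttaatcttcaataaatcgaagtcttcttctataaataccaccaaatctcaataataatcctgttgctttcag
CG18404, chr3R:30261929-30262079: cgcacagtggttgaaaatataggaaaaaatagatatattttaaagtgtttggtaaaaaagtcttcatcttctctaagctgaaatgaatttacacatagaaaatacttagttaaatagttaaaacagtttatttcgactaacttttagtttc
CG43245, chr3L:10757727-10757877: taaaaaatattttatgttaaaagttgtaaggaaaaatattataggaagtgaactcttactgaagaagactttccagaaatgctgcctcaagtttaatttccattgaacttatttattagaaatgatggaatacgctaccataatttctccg
Eip93F, chr3R:21937214-21937364: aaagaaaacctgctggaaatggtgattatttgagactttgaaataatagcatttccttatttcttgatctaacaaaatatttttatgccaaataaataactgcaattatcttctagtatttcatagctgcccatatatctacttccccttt

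A further set shows distal summits that do carry TAATTA or an ETS word. Capitals mark TAATTA, which reads the same on both strands, and the ETS words CAGGAAA and CAGGAAG or CCGGAAA and CCGGAAG on either strand. The first pair are neighbouring summits near CG42747. The sequence near CG42680 holds CCGGAAG, the one nearest to hh, which encodes the Hedgehog ligand, holds TAATTA at 2 positions, and the one near kek1 holds it at 1.
CG42747, first summit, chr3L:6392507-6392657: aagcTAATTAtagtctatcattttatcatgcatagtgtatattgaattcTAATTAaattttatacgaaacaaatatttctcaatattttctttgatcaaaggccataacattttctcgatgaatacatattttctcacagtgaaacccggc
CG42747, second summit, chr3L:6391482-6391632: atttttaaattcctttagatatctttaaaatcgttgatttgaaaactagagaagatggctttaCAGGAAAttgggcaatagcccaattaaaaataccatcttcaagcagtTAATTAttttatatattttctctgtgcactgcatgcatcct
CG42680, chr2L:14598395-14598545: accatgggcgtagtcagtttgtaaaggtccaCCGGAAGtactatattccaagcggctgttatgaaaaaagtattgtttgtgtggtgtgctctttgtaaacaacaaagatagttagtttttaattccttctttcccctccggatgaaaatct
hh, chr3R:23147779-23147929: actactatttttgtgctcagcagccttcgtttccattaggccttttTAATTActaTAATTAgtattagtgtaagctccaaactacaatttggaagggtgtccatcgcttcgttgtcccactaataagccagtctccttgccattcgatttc
kek1, chr2L:12829340-12829490: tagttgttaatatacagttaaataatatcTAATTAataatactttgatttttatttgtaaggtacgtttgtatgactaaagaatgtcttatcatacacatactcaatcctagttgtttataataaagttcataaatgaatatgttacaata

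The strongest distal summit lay 11976 bp downstream of the TSS of CG13323 (FBgn0033788), in the gap between Su(z)2, a Polycomb-group gene, and CG13323. Its peak covered chr2R:13035007-13035573 with the summit at 13035280. Its signal value, the authors' own score for a peak, was 3810 in the reproducible list, 1430 in replicate 2 and 2380 in replicate 3. It ranked 19 among all reproducible peaks and 13 and 24 in the replicate lists, and was the single distal summit among the 20 strongest. The other 5 distal summits in that gap had values from 157 to 224, so 1 position stood far above its neighbours.

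The second lay 5739 bp upstream of eEF1gamma (FBgn0029176), which encodes a subunit of translation elongation factor 1, with its summit at 29214433 on 3R. Its signal value was 3670, with 1290 in replicate 2 and 2410 in replicate 3. It was also 129 bp from the long non-coding RNA gene CR31044. The gap between CG18404 and heca on 3R held the third and the fourth. The summit 5220 bp upstream of heca (FBgn0010113), the headcase gene, which acts in imaginal cells, had a value of 2350, with 866 and 1500 in the replicates, and lay 50 bp from the long non-coding RNA gene CR46113. The summit 8822 bp downstream of the TSS of CG18404 had a value of 2190, with 850 and 1360. Both ranked 115 or better in either replicate list.

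Of the next strongest, the summit 14201 bp upstream of pxb on 3R had a value of 2130, with 901 in replicate 2 and 1270 in replicate 3. A summit 14123 bp upstream of CG43245 on 3L had 1960, with 664 and 1300. A pair lay upstream of Eip93F (FBgn0264490), an ecdysone-induced transcription factor gene that directs the change from larval to adult fates at metamorphosis. They were 11825 and 7557 bp from its TSS, with values of 1850 and 1750 in the reproducible list. The first had 649 in replicate 2 and 1220 in replicate 3, and the second had 763 and 1000, so the replicates put them in opposite order. The summit 6056 bp upstream of scyl (FBgn0041094), whose product restrains TOR signalling, had 1810, with 437 and 1370. Its rank was 562 in replicate 2 and 109 in replicate 3, the widest gap in rank among the 10 strongest. The tenth lay 5184 bp upstream of Wnt10 (FBgn0031903), a Wnt ligand gene, with 1710 in the reproducible list, 556 in replicate 2 and 1160 in replicate 3. Between replicates the values are on different scales, so only their order within a list can be compared.

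Both replicates marked almost all of the distal positions. A peak of each replicate list overlapped 885 of the 893 by at least 1 bp, or 99.1% (98.2 to 99.6), and the other 8 were overlapped in 1 replicate each. Those 8 had signal values from 163 to 273, in the lower part of the list, and included summits nearest to plh, mirr, unc-4 and Osi21. With replicate summits required within 100 bp the share was 97.2%, and with the overlap covering at least 50% of both intervals it was 72.1%. The matching peaks ranked 13 to 21637 in replicate 2, with a median of 3979, and 23 to 14688 in replicate 3, with a median of 3958. Counting in each replicate as many of the strongest peaks as the reproducible list holds, 716 of the 893 (80.2%) were found in both and 4 in neither. Across the 885, replicate signal values had a Spearman rho of 0.817, given as a description because neighbouring summits can share a peak: 51 of the distal summits shared their replicate 2 peak with another one, and 51 their replicate 3 peak. The overlap itself is partly built in, because the reproducible list was made from these replicate lists.

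**Figure D1:**
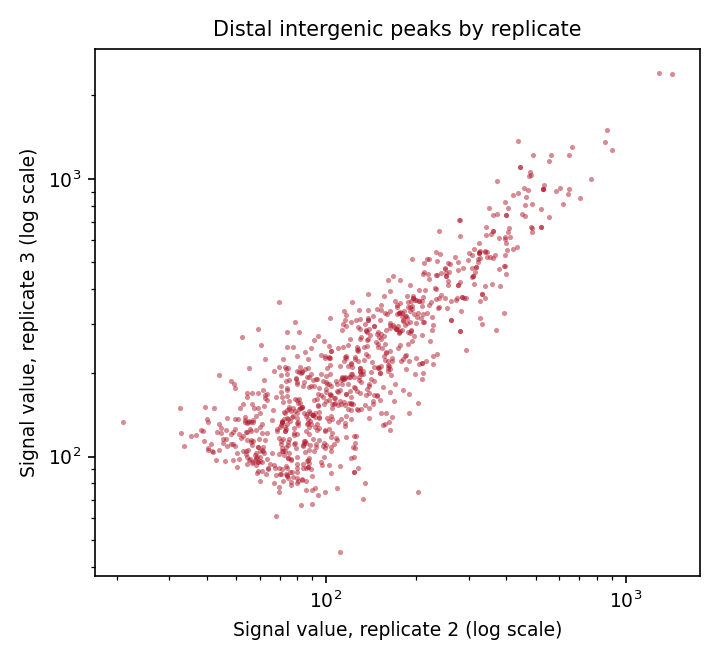
Signal value of each distal intergenic peak in replicate 3 (vertical, log scale) against replicate 2 (horizontal, log scale), 1 point for each of the 885 summits found in both lists. Values ran from 21.0 to 1430 in replicate 2 and from 45.2 to 2410 in replicate 3, and the points follow 1 band with more scatter among weak peaks.

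Applying the same rule to an equal number of each replicate's own strongest peaks gave 853 distal summits in replicate 2 (10.6%, 9.98 to 11.3) and 881 in replicate 3 (11%, 10.3 to 11.7). Of these, 785 (92.0%) and 816 (92.6%) lay on a peak of the reproducible distal set. The pooled list, called on both replicates together, had 3894 distal summits among its 30000. Of these, 893 (22.9%, 21.6 to 24.3) were in the reproducible list, against 26.7% of all pooled peaks. The share was 25.6% (24.0 to 27.1) for intergenic summits at 500 to 5000 bp and 22.7% (21.7 to 23.7) for those deep inside genes. Distal peaks thus passed at a rate below that of the pooled list as a whole and close to that of deep gene-body peaks.

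Distal summits were of ordinary strength but rarely among the very strongest. Their signal values ran from 148 to 3810 with a median of 290 (quartiles 198 and 471), beside a median of 293 (199 and 518) for all reproducible summits, 301 for summits within 500 bp of a TSS, 295 for intergenic summits at 500 to 5000 bp and 278 for deep gene-body summits. The ratio of the distal median to that of the whole list was 0.988, and 1.02 and 0.985 in the lists of replicates 2 and 3. The upper end differed more: 35 of the 893 (3.92%) were among the 500 strongest, beside 6.24% of all summits. The share was 4.93% for intergenic summits at 500 to 5000 bp, 4.25% for deep gene-body summits and 9.04% for summits within 500 bp of a TSS. With the whole list cut into 5 equal classes from strongest to weakest, distal summits made up 8.8% (7.45 to 10.3), 12.3%, 12%, 10.9% and 11.8%. Peak intervals had a median width of 292 bp (quartiles 212 and 400), beside 310 bp for all reproducible peaks, and the 893 summits lay on 883 distinct intervals. No test over peaks was made for any of these values. Peaks are not replicates, the intervals printed are exact 95% intervals that cover counting error only, and the read depth is unknown.

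The distal summits lay 5003 to 64001 bp from the nearest protein-coding TSS, with a median of 11012 bp (quartiles 7752 and 17318). To read these distances, summits were counted per megabase of eligible sequence, meaning all sequence that meets the same rule. Each megabase held 48.8 summits (42.3 to 56.0) at 5 to 7.5 kb, 63.7 (55.0 to 73.4) at 7.5 to 10 kb, 53.7 (46.8 to 61.3) at 10 to 15 kb and 49.3 (41.1 to 58.7) at 15 to 20 kb. Intergenic sequence 500 to 5000 bp from a TSS held 60.5 (56.4 to 64.9). Of the 4 distal bins up to 20 kb, the one at 7.5 to 10 kb lay inside that interval and the others below it, the first with an interval that did not reach it. It was 37.4 (30.4 to 45.4) at 20 to 30 kb and 6.82 (5.08 to 8.97) beyond 30 kb, where 7.47 Mb held 51 summits. Leaving out transposable elements, which made up 9.86% to 16.3% of these bins, the last values were 44.7 and 7.9. Median signal values by bin ran from 244 at 20 to 30 kb to 336 at 5 to 7.5 kb, with 266 beyond 30 kb.

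By chromosome arm, 3L held the most, with 321 summits on 6.408 Mb of such sequence, or 50.1 per Mb (44.8 to 55.9). Arms 2L and 3R had 41.9 per Mb each, from 179 and 192 summits. Arm 2R had 25.6 (21.4 to 30.3) from 133, and X had 19.5 (15.1 to 24.8) from 66. On 4 there were 2, and on Y there were 0 on 2.297 Mb, with an upper bound of 1.61 per Mb from counting error alone. The reproducible list held 0 summits of any class on Y, so that value says nothing particular to distal summits. Without Y the density was 37.2 per Mb (34.8 to 39.7), beside 60.0 for all reproducible summits over all sequence. Distal summits made up 17.4% (15.7 to 19.2) of all summits on 3L and 4.44% (3.45 to 5.62) of those on X. The low value of 2R depended on the 85 gaps with more than 50 kb of such sequence, which over all arms without Y hold 10.4 Mb and 147 distal summits. Leaving these gaps out was an alternative chosen after seeing the data. Within gaps that had at most 50 kb, 2R rose to 53.4 per Mb (44.0 to 64.2), close to 2L at 50.4 and 3R at 53.3. On that count 3L remained highest at 80.5 (70.8 to 91.2) and X lowest of the large arms at 24.8 (18.2 to 33.0).

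**Figure D2:**
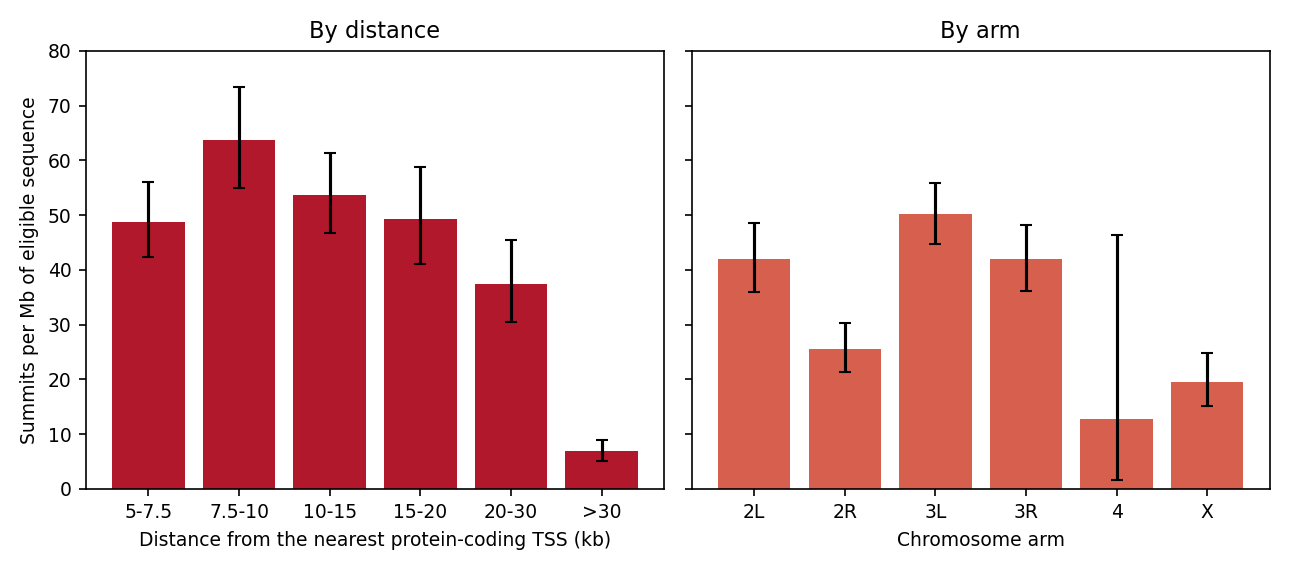
Distal intergenic summits per Mb of sequence that meets the same rule, by distance from the nearest protein-coding TSS in kb (left) and by chromosome arm without Y (right). Bars are counts over sequence and lines are exact 95% Poisson intervals; density stays between 48.8 and 63.7 up to 20 kb and is 6.82 beyond 30 kb.

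Many distal summits had close neighbours. The nearest other distal summit was a median of 2228 bp away, 633 of 893 (70.9%, 67.8 to 73.8) had one within 5000 bp, and 270 (30.2%, 27.2 to 33.4) within 1000 bp. Of the 893, 19 shared a peak interval with another. Such shares were not counted for the other summit sets, so close spacing is not shown to be particular to this one. Of 1434 gaps between protein-coding genes that contain sequence under the rule, 288 (20.1%) held at least 1. A single summit was found in 115 gaps, while 68 gaps with 5 or more held 495 summits together. Gaps with 10 to 20 kb of such sequence had 62.9 per Mb (55.3 to 71.3) and those with 20 to 50 kb had 52.0 (46.8 to 57.6). The 85 gaps above 50 kb had 14.2 (12 to 16.7), and 24 of them held any. The gaps with the most eligible sequence and no distal summit lay on 3L and 3R. The one on 3L between CG42598 and CG40228 had 592 kb of such sequence, and 34.4% of the whole gap was soft-masked repeat sequence. The one from the start of 3R to Myo81F had 552 kb, and 72.7% of that whole gap was soft-masked.

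The 6 gaps described next held 92 distal summits, or 10.3% of the set, and both replicates had a peak at all 92. They are the 6 with the most, except that the last ties with the gap between mid and CG14020 on 2L, which also held 12 and was placed lower by summed signal value. On 3L, the 75 kb gap between NijA, a ninjurin gene, and CG43245 held 19, from 148 to 1960 with a median of 331. The replicate 2 values there ran from 32.8 to 664 with a median of 168, and the replicate 3 values from 83.9 to 1300 with a median of 158. The 7 nearest to NijA had 155 to 451, and those above 1500 all lay within 15 kb of the CG43245 TSS. Also on 3L, the 48.5 kb gap between CG7320 and CheA75a held 18, up to 1550, the 47.9 kb gap between hng3 and CG13898 held 16, up to 762, and the 73.5 kb gap between Aps and CG14147 held 14, up to 885. On 3R, the 33.6 kb gap upstream of Eip93F held 13, up to 1850, and on 2L the 56.3 kb gap between CG15258 and CG44869 held 12, up to 969. Outside these 6, the 23.8 kb gap between CG18404 and heca held 10 with a median of 1080. The 21.1 kb gap between Ids and sty held 11 with a median of 719; sty encodes Sprouty, an inhibitor of receptor tyrosine kinase signalling. Both of these were picked after their values were seen.

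**Figure D3:**
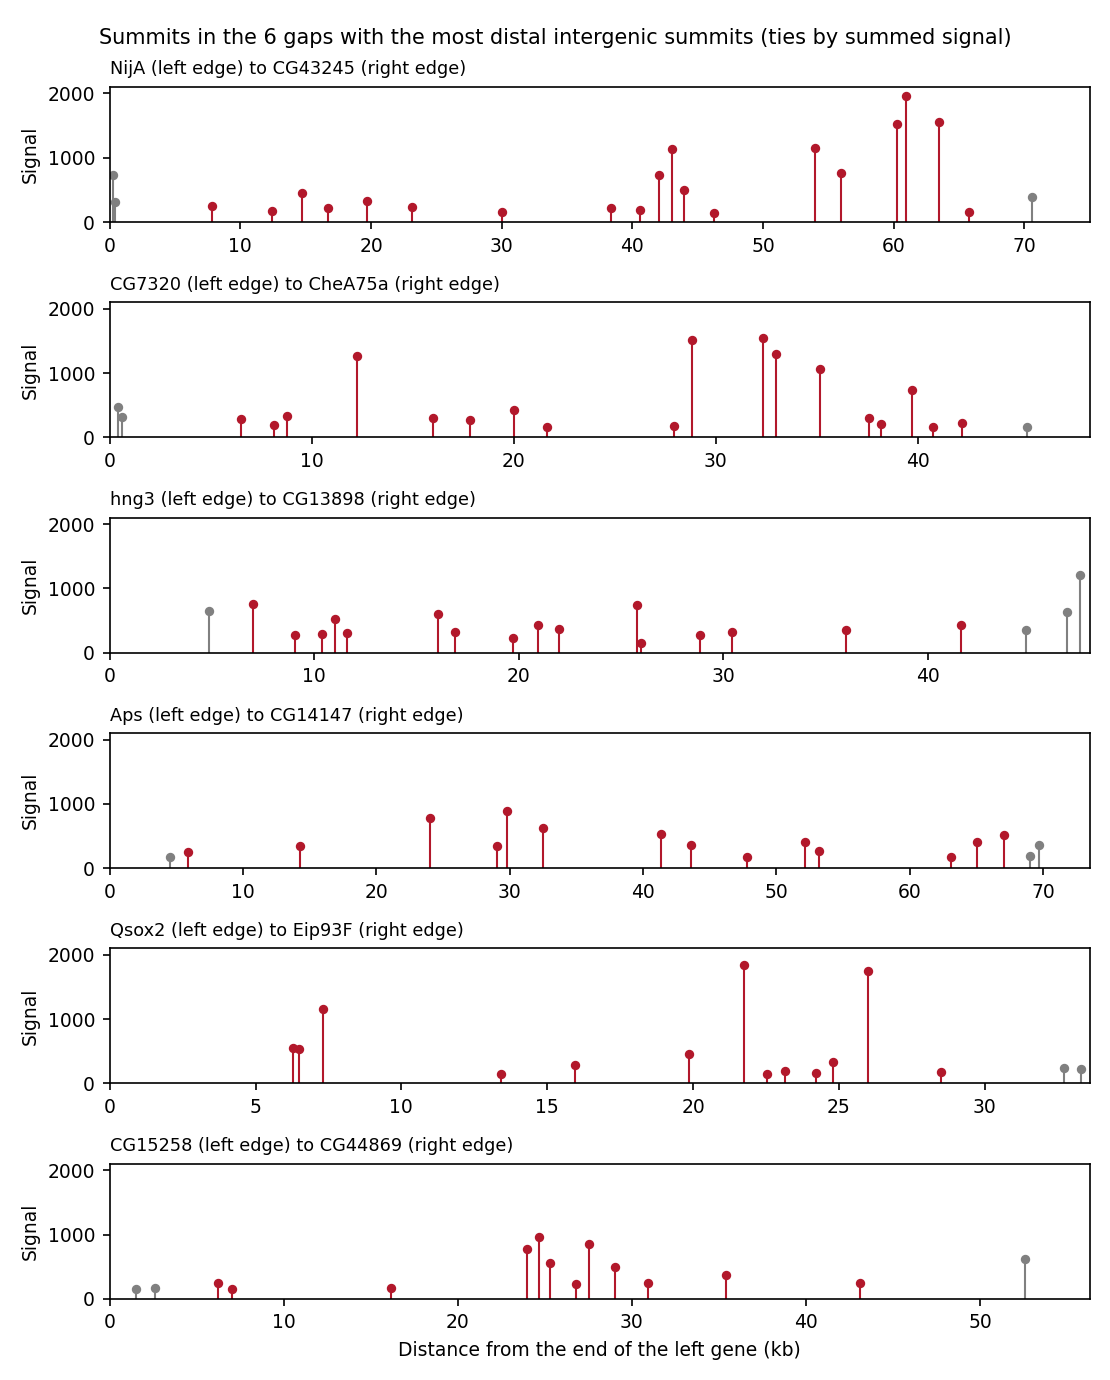
Positions of reproducible summits in the 6 gaps with the most distal intergenic summits (a tie at 12 broken by summed signal value), as distance in kb from the end of the left gene (horizontal) against signal value (vertical). Distal summits are red and other intergenic summits of the same gap are grey; the panels hold 19, 18, 16, 14, 13 and 12 distal summits from top to bottom.

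Distal summits were also sorted by the orientation of the flanking genes. Gaps between divergent genes held 24.1% (21.3 to 27.0) of distal summits and 19.3% of the bases, tandem genes 51.8% and 47.9%, and convergent genes 24.1% and 25.2%. Gaps at an arm end held 0 (upper bound 0.412%) and 7.62% of the bases. Upstream of the gene with the nearest TSS lay 53.6% (50.3 to 56.9) of the summits and 53.8% of the bases. Annotated transposable elements contained 1 distal summit, near CG17571 on 2L with a signal value of 335, or 0.112% (0.00284 to 0.622), and 13.1% of the bases. Of all reproducible summits 0.175% lay in such elements, so the low share is not particular to the distal set. Soft-masked repeats in general held 27.5% (24.6 to 30.6) and 30.1% of the bases, beside 26.3% of all reproducible summits. How well reads can be placed in repeats was not tested.

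Intergenic here means outside all annotated transcripts, and some distal summits were close to non-coding ones. Within 1000 bp of a non-coding transcript lay 99 of 893 (11.1%, 9.1 to 13.3), beside 4.77% of the bases and 13.0% of all reproducible summits. That last share also counts summits inside non-coding transcripts, which the rule keeps out of the distal set, so the shares are not alike. The nearest transcript was an annotated ncRNA for 91 of the 99, a tRNA for 5, a pseudogene for 2 and an snRNA for 1. Within 500 bp of the start of a non-coding transcript lay 38 (4.26%, 3.03 to 5.79), beside 1.59% of the bases. The summits nearest to eEF1gamma, heca and scyl described above are among the 99. For the whole set the median distance to a non-coding transcript was 8351 bp.

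Genes on the transcription factor and signalling lists were nearest to a larger share of the distal summits than of the bases under the rule. The lists hold 86 homeobox, 135 other transcription factor and 75 signalling genes and need not cover each class. They were chosen with earlier results of these data known, so the shares are not independent support. In all, 371 genes were nearest to a distal summit. Genes of the homeobox and other transcription factor lists were nearest to 124 of the 893 (13.9%, 11.7 to 16.3), spread over 43 genes. The same genes were nearest to 6.77% of the bases under the rule and to 6.33% of all reproducible summits. The shares were 13.5% and 13.8% in the lists of replicates 2 and 3. Counting either gene that flanks the gap, the share was 22.6%, beside 12.5% of the bases. Within gaps of at most 50 kb it was 13.7% (11.3 to 16.3), beside 8.0%. These are counts and intervals without a test, and neighbouring summits near 1 gene are not independent.

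Among homeobox genes there were 54 summits (6.05%, 4.58 to 7.82) against 3.22% of the bases and 1.81% of all reproducible summits. The POU genes pdm3 and vvl, whose products regulate neural and other cell fates, had 5 and 7, with highest values of 951 and 693. The head gap gene ems had 4, up to 908 at 20156 bp downstream, and tup, the fly Islet gene, had 3, up to 603. In replicates 2 and 3 the strongest summits had 402 and 553 near pdm3, 279 and 625 near ems, and 210 and 375 near tup. The strongest summit near vvl lay 57317 bp downstream, and its replicate peaks, at 275 and 416, also covered a second summit 57525 bp away.

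Among other transcription factors there were 70 summits (7.84%, 6.16 to 9.8) against 3.55% of the bases and 4.52% of all reproducible summits. Eip93F led with 9, from 152 to 1850. The bHLH repressor gene hry (hairy) had 5, from 158 to 1290, the T-box gene H15 had 4, up to 998, and the pair-rule gene odd had 4, up to 876. The strongest near hry lay 7454 bp upstream, with 554 in replicate 2 and 727 in replicate 3. A second one, 6463 bp upstream, had 1100 in the reproducible list, with 361 and 738. Both stood well above the other 3 near hry, and the replicates ordered them differently.

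Signalling ligands and receptors were nearest to 41 (4.59%, 3.31 to 6.18) against 1.25% of the bases and 2.12% of all reproducible summits. Besides Wnt10, the Hedgehog receptor gene ptc had 1, 5279 bp upstream of its TSS, with 1290 in the reproducible list, 372 in replicate 2 and 982 in replicate 3. The Notch ligand gene Ser had 3, from 337 to 1130, the strongest with 485 and 646 in the replicates. Tollo, a Toll-family receptor gene, had 8, from 175 to 1480. Its strongest, 25147 bp downstream, had 478 and 1060, and one 9741 bp upstream, with 869 in the reproducible list, holds TAATTA. The median signal value of the 41 was 334, beside 290 for all distal summits. The shares in the replicate lists were 4.57% and 4.54%.

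The other lists were close to or below their share of the bases. Over all reproducible summits the shares were 1.75% for adhesion and guidance, 0.237% for channels and neurotransmitter receptors and 0.599% for chemoreceptor and odorant-binding genes. They were 0.212% for cuticle proteins, 0.736% for ribosomal proteins and 30.7% for genes known only by a CG number. Beside these, only the cuticle and ribosomal shares of the distal set were lower. Adhesion and guidance genes were nearest to 17 (1.9%, 1.11 to 3.03) against 3.8% of the bases. Of these genes, kek1 and caps, both encoding leucine-rich repeat membrane proteins, had 5 each, up to 868 and 595. The related gene trn had 1 at 542, and Nlg3, a neuroligin gene, had 1 at 460. Channels and neurotransmitter receptors had 6 (0.672%) against 0.69%: ppk, a DEG/ENaC channel gene, had 2 up to 568, the glutamate receptor gene GluRIIB had 3 up to 431, and the GABA receptor gene Rdl had 1 at 151. Chemoreceptor and odorant-binding genes had 13 (1.46%, 0.777 to 2.48) against 1.59%. Obp56h, an odorant-binding protein gene, had 4, with the strongest at 1500, followed by Gr93b at 648, Or65a at 257 and Or67c at 249. Cuticle proteins had 1, near Cpr51A at 150, against 0.148% of the bases, and ribosomal proteins 1, near RpL10Aa at 169, against 1.94%. Within gaps of at most 50 kb of eligible sequence the ribosomal share was 0.134% (0.00339 to 0.745) against 0.655%, inside the interval, and the adhesion share 1.47% (0.738 to 2.62) against 2.97%. Genes known only by a CG number had 387 (43.3%) against 42.7%; their strongest summits were near CG13323, CG18404, CG43245 and CG13321, the last with 1540.

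**Figure D4:**
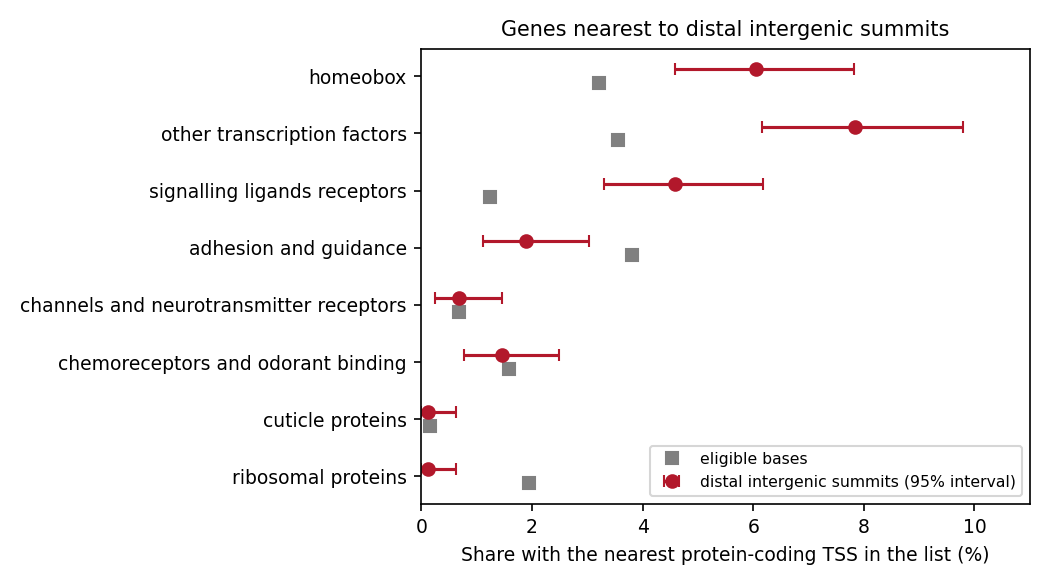
Share of distal intergenic summits whose nearest protein-coding TSS belongs to each gene list (red points with exact 95% intervals) and the share of the bases under the same rule (grey squares), in percent. The points for homeobox genes, other transcription factors and signalling lie at 6.05, 7.84 and 4.59, to the right of squares at 3.22, 3.55 and 1.25.

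The base composition under distal summits formed a narrow A+T-rich valley between G+C-rich shoulders. The mean G+C content within 50 bp of the summit was 29.4%, and it was 46.5% and 46.7% in equally wide windows centred 400 bp to either side. All sequence under the rule averaged 40.9%, so the centre was below it and the shoulders above it. The difference between centre and flanks was -17.2 percentage points, and -17.3 and -16.9 in the lists of replicates 2 and 3. It was -14.5 for intergenic summits at 500 to 5000 bp, -13.8 for deep gene-body summits and -12.8 for all reproducible summits. The G+C content was lower at the summit than in either flank for 787 of 893 (88.1%, 85.8 to 90.2), beside 74.4% (73.4 to 75.4) of all reproducible summits. Single summits ranged widely: those near Eip93F and CG18404 shown above had 22.8% within 50 bp, the one near eEF1gamma 35.6% and the strongest of all, near CG13323, 41.6%. With windows of 100 bp to either side of the summit the difference was -14.2, and with flanks 800 bp away it was -11.3.

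Stronger peaks had less G+C at the summit. In 5 equal classes of the distal set from strongest to weakest, the mean G+C content at the summit was 28.5%, 29.0%, 29.3%, 29.8% and 30.3%. The 3001 distal pooled peaks outside the reproducible list, with a median signal value of 47.1, had 37.2% at the summit and 44.3% in the flanks, a difference of -7.06, and 56.1% (54.3 to 57.9) of them were lower than both flanks. Base composition can affect the recovery of fragments in sequencing libraries, and its part in these values was not tested.

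**Figure D5:**
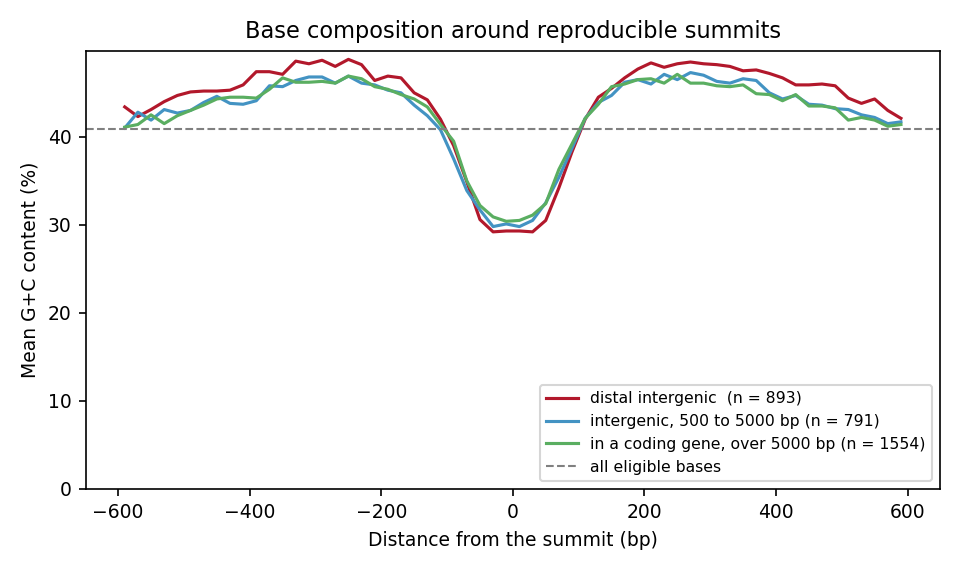
Mean G+C content in percent (vertical) in bins of 20 bp by distance from the summit in bp (horizontal), for distal intergenic summits and the other 2 summit sets, with the mean of all sequence under the rule at 40.9% as a dashed line. The distal curve is near 29.3% at the centre and exceeds the dashed line on both sides.

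Few distal summits held any of the ETS words searched. These words cover only part of the sequences with a GGAA core, and that core alone was not counted. An ETS word, as spelled out above and searched on both strands, lay within 50 bp of 25 of 893 summits (2.8%, 1.82 to 4.11), beside 3.7% of the flank windows, a ratio of 0.758. In the lists of replicates 2 and 3 the ratio was 0.453 and 0.7, and among the strongest 50% of the reproducible peaks 0.485. The ratio was 0.277 for intergenic summits at 500 to 5000 bp, 0.489 for deep gene-body summits and 0.611 for all reproducible summits, of which 2.45% held a word. The 25 had a median signal value of 244 and a median rank of 4880. The shorter core CCGGAA, which overlaps 2 of the ETS words, was at 10 summits (1.12%) and in 1.74% of flanks, a ratio of 0.645, with 0.167 and 0.533 in the replicate lists. Of the 474 six-letter words with the same number of G and C letters and at least 10 flank occurrences, 448 had a lower ratio than CCGGAA. That place rests on 10 summits. The replicate 2 ratio came from 3 summits and is below 0.223, the lower quartile of these words in the reproducible distal set. The ratios of these words were not computed in the replicate 2 list, so its place there is unknown. Matches to these letters do not show where the protein sat.

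The homeodomain core TAATTA lay within 50 bp of 97 summits (10.9%, 8.9 to 13.1) and in 5.66% of flanks, a ratio of 1.92, with 2.07 and 1.86 in the replicate lists. For all reproducible summits the share was 11%. Read against base composition, TAATTA had the lowest ratio of the 36 six-letter words made of A and T alone, whose median ratio was 3.0. In the same 5 classes from strongest to weakest, the share with TAATTA was 7.26%, 14.0%, 11.7%, 12.4% and 8.99%, with no steady trend. It occurred at 2 positions at 8 summits, among them the one near hh shown above with a signal value of 470, and at 3 positions at 0. The GATA-factor word AGATAA was at 80 summits (8.96%, 7.17 to 11) and in 4.26% of flanks, a ratio of 2.11, and 64 of the 192 words of its composition had a lower one. Of all reproducible summits, 8.61% held it.

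The nuclear receptor element AGGTCA, recognised by several receptors of the ecdysone cascade, was at 22 summits (2.46%, 1.55 to 3.71) and in 1.46% of flanks. Its ratio was 1.69, with 1.64 and 1.69 in the replicate lists, and 611 of the 620 words of its composition had a lower one. For all reproducible summits the ratio was 0.871, for deep gene-body summits 1.13 and for intergenic summits at 500 to 5000 bp 0.741. The lower bound of the share, 1.55%, is just above the flank value, but in the replicate 2 list the share was 2.11% (1.26 to 3.31) with 1.29% in flanks, inside the interval. Of all reproducible summits 1.85% held the word. Of the other words, AACAAT (Sox) was at 13.2% of summits and 9.74% of flanks, a ratio of 1.36, and 10 of the 192 words of its composition had a lower one. The word TTCNNNGAA (STAT) was at 3.02% and 1.68%. Less frequent at summits than in flanks were GAGAG at 6.61% and 13.3%, GCCAT (Pho) at 10.5% and 22.2%, CAGCTG at 1.68% and 5.43% and CACGTG at 0.224% and 1.57%. Simple repeats split by composition, with TATATATA at 3.02% and 0.728% and CACACACA at 0.672% and 4.2%.

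Among all six-letter words, counted with their reverse complements, the largest differences were for words of A and T. AAATAT was at 43.8% of summits (40.5 to 47.1) and 11.8% of flanks, with 42.2% and 41.9% of summits in the replicate lists. AAAATA was at 43.6% and 12.6%, and the next were ATTTTA and TTAAAA and TAAATA and AATATA and ATTTAA and TAAAAA, at 29.7% to 37.2% of summits and 6.16% to 13.7% of flanks. The largest differences the other way were for GCCAAA, at 5.6% and 14.7%, and for GCTGCC and GCCAGC and GGCCAA, each in 10.1% to 11.1% of flanks. The median ratio of summit to flank fell with each G or C letter in the word, from 3.0 with 0 such letters through 2.56, 1.39, 0.619, 0.306 and 0.159 to 0.111 with 6. Word frequency thus tracked composition, and these shares were not tested against it.

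The distal summits nearest to the limit were 5003 bp upstream of CG8117 on X, with a signal value of 281, and 5019 bp upstream of CG13481 on 3L, with 885. The intergenic summits just inside the limit were 4987 bp from scramb1, with 170, and 4972 bp from CG9300, with 711, both on 3L. The farthest distal summits were 64001 and 59575 bp downstream of the TSS of Cyp12e1, in the 70.9 kb gap that ends at the homeobox gene hth, with 162 and 173, and 60377 bp downstream of the TSS of Prat2 in the 117 kb gap shared with vvl, with 475. All 3 were found in both replicates, at 59.5 and 108, 46.3 and 116, and 192 and 283. The weakest, near tey on 3L and in the NijA to CG43245 gap, had 148 each to 3 significant digits, with ranks of 7994 and 8006.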

How the data were processed

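ChIP-seq of Ets96B-eGFP was made on 2 biological replicates of whole prepupae. The authors deposited narrowPeak lists on dm6: 1 per replicate and 1 pooled, 30000 peaks each, and a reproducible list of 8015 peaks past an irreproducible discovery rate threshold. Calls used a control alignment, per the labels and description files. Aligner, peak caller and threshold: not given in the sources used here. With each peak the authors deposited a signal value, used only to rank peaks within a list and printed to 3 significant digits. The deposited −log10 q-value was 4.42 for all reproducible peaks and ranked none. The read depth is unknown.

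Genes came from Ensembl release 115 and sequence from RefSeq, whose arm lengths contain all peaks and annotations. Sequence under the rule is every known base in no transcript (transposable elements excepted) and more than 5000 bp from a protein-coding TSS. Unless stated otherwise its shares leave out Y. Words were counted within 50 bp of the summit and in equal windows centred 400 bp to either side. Binomial (Clopper-Pearson) and Poisson intervals are exact at 95%. No test was made, since there is 1 group and peaks are not replicates. Replicate variation is given by repeating the rule on each replicate's 8015 strongest peaks.

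The set, gene lists, words and rules were chosen with earlier results of these data known. Gene lists used 383 typed symbols, of which 1 (Dl) matched no gene, and families taken by symbol prefix. Named were the 10 strongest summits, the 6 fullest gaps (ties by summed signal value), the 3 farthest, up to 4 genes per list by strongest summit, summits at the limit, the 2 weakest, and the 8 and 4 six-letter words with the largest differences each way. The 8 summits found in 1 replicate, the printed summits with a word, and others marked so were chosen after values were seen. The code was checked on simulated data. Python 3.11.15, numpy 2.4.6, pandas 2.3.3 and scipy 1.17.1 were used.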

Additional observations from a re-analysis of the deposited data

How the results depend on the processing

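No paired analysis was possible because there is only 1 group, and no result rests on a test. Of the alternative values, 23 stayed within the replicate spread and 32 moved, including both alternative overlap rules, for which there is no replicate spread. That spread is the standard deviation of the values from leaving out either replicate. Those values are in the tally too and are judged by a spread they define, so the tally does not measure robustness. The distal share was 16.4% and 6.23% with limits of 2000 and 10000 bp, 12.6% with only transcripts of protein-coding genes counted, and 10.6% to 11% when a replicate was left out. The density was 41.8 and 29.6 per Mb with those limits, 42.8 with transposable elements counted as transcripts, 39.2 with only protein-coding transcripts, 54.7 in gaps of at most 50 kb (added after seeing the data), and 35.5 to 36.7 when a replicate was left out. With the strongest 50% of the reproducible peaks it was 18.3, from 440 summits. In that list the signal ratio was 0.916, the G+C difference -18.2, the TAATTA ratio 2.27, the ETS ratio 0.485 and the transcription factor share 13.2%. Leaving out a replicate gave signal ratios of 0.985 to 1.02, G+C differences of -17.3 to -16.9, TAATTA ratios of 1.86 to 2.07, ETS ratios of 0.453 to 0.7 and transcription factor shares of 13.5% to 13.8%. The share found in both replicates was 97.2% by summits within 100 bp and 72.1% by an overlap of 50% of both intervals. With the 2000 bp limit the G+C difference was -16.6, the ETS ratio 0.577 and the transcription factor share 11%, and with 10000 bp the TAATTA ratio was 1.73 and the transcription factor share 17.6%. Windows of 100 bp to either side gave a G+C difference of -14.2 and a TAATTA ratio of 1.59, flanks 800 bp away gave -11.3 and 1.29, and either flanking gene gave a transcription factor share of 22.6%. The fall of the density with a shorter list follows from fewer summits, and the other causes were not tested.

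Only peak lists were analysed, so depth and background could not be measured. A list cut at 30000 peaks leaves weaker distal binding out. The nearest TSS does not show which gene a summit acts on, and 1 group at 1 stage shows no change with time or condition. Word counts of 25 or fewer leave intervals that are wide relative to their value.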
